A study of Mus musculus with 24 samples.

Results

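Leukocyte content differed between tumors of one and the same genotype, and the genes that varied with it were read in the 15 whole-tumor libraries of a study of Sun1 knockout CT26 tumors. Leukocyte content was taken as the level of Ptprc, which encodes CD45, a receptor-type tyrosine phosphatase carried by nearly all white blood cells. For each gene the mean of its own genotype was subtracted from the log2 level, and the 15 residuals were correlated with those of Ptprc. Levels are in CPM, expected counts scaled to a common library total. Of 35976 genes listed, 12870 had a mean of 1 CPM or more over the 15 tumors and were read. Apart from Ptprc itself, 277 genes had a Pearson r of 0.8 or more and 2 had an r of -0.8 or less.

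CT26 is a colon carcinoma line of BALB/c origin, and its cells were injected under the skin of the right flank of BALB/c mice and the tumors collected at day 14. The 7 KO tumors came from CT26 cells with Sun1 knocked out, and the 8 Control1 tumors from a wild-type CT26 control line, so every comparison of genotypes is one of a single knockout line with a single control line. The mice are labelled only as BALB/c, and no age or sex is labelled. Of the 24 libraries in the series, tumor cells purified from such tumors with an isolation kit (2 KO and 2 Control1 libraries) were used as a comparison, and the cultured lines (1 KO and 1 Control1 library) only for levels. Sun1, whose product ties the nuclear lamina to the cytoskeleton, had 50.8 to 66.0 CPM in KO tumors and 175 to 187 CPM in Control1 tumors, without overlap, and its r with Ptprc within genotypes was 0.0038. Tumor libraries held 14140769 to 24651279 expected counts. The labels do not say whether the tumors of a group came from separate mice, and a p-value here speaks of the spread among libraries, which may be technical.

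A subcutaneous tumor holds carcinoma cells together with macrophages, T cells, natural killer (NK) cells, neutrophils, dendritic cells, fibroblasts and vessels. Macrophages engulf debris and carry Fc receptors and complement C1q, T cells recognise peptides on MHC molecules, and killer lymphocytes release perforin and granzymes into their targets. RNA of a whole tumor is a sum over these cells, so that fewer cells of a type and less RNA per cell cannot be told apart, and a rise in the share of 1 cell type lowers the share of all the others.

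Ptprc had 229, 191, 176, 171, 248, 157 and 174 CPM in KO tumors 1 to 7, against 125, 158, 70.2, 119, 156, 118, 141 and 120 CPM in Control1 tumors 1 to 8. KO tumors 1 and 5 were the highest of their group and KO tumor 6 the lowest. Control1 tumor 3 stood apart below all others, 0.80 log2 units under its group mean. The 2 genotypes overlapped in 1 place, where KO tumor 6 lay just below Control1 tumor 2. In the purified cells Ptprc was at 0.51 CPM in KO and 1.72 CPM in Control1, and in culture at 0.58 CPM in KO and 0.37 CPM in Control1. Cultured and purified CT26 cells thus held next to no Ptprc, set against the tumors.

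**Figure D1:**
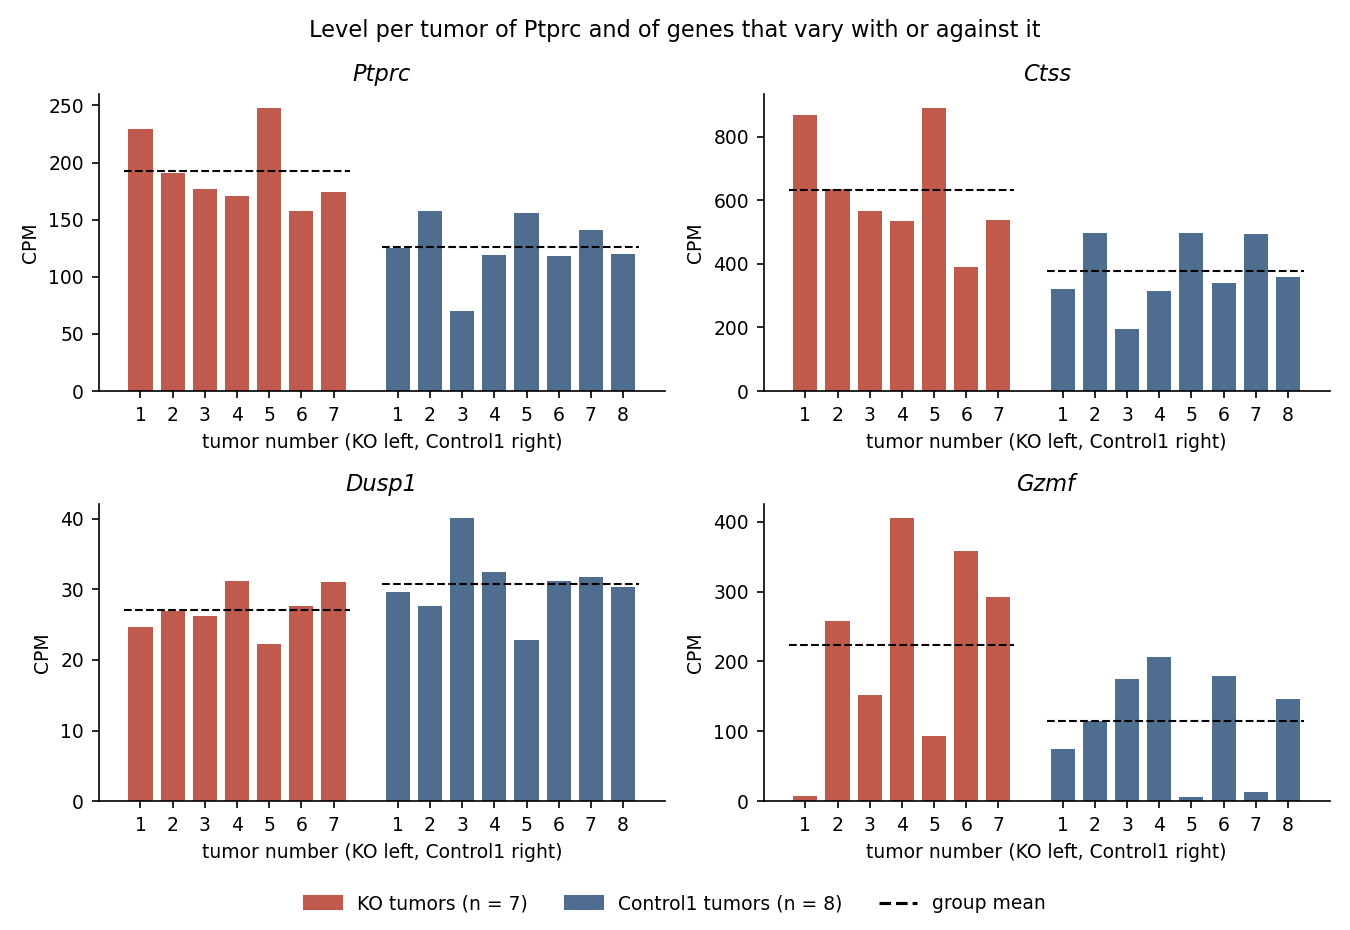
Level in CPM (y axis, from 0) of Ptprc, Ctss, Dusp1 and Gzmf in each tumor (x axis, tumor number), with KO tumors left and Control1 tumors right and the group mean dashed. Ctss follows Ptprc from tumor to tumor, Dusp1 is highest in Control1 tumor 3 where Ptprc is lowest, and Gzmf is near 0 in KO tumor 1 and Control1 tumors 5 and 7.

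The members were chosen by these correlations, so the values of r are a description and carry no test. A share of 2.15% of the other measured genes reached r 0.8 and 0.0155% reached -0.8. The median r over all genes was 0.044 and 55.3% of genes were above 0, so the distribution leaned to the positive side. Just inside the limit lay Serpina3g (0.8004) and Gm5150 (0.8003), and just outside it Cpd (0.7998) and BC147527 (0.7996). On the negative side Dusp1 (-0.85) and Speg (-0.82) were inside, and Btbd6 (-0.78) and Mras (-0.78) outside. The number of followers rested partly on single tumors. It was 207 without Control1 tumor 3, 160 of them among the 277, and 145 without both that tumor and KO tumor 5, 113 of them among the 277, an alternative added after the data were seen. The median r of the 277 genes without those 2 tumors was 0.78 and the lowest 0.32.

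Followers ranged in mean level from 1.04 to 1360 CPM, and their median slope was 1.09, so that 1 log2 unit more Ptprc went with about 1 log2 unit more of the typical follower. The 15 genes of highest r among those at 5 CPM or more, with 0.6 or more in both genotypes, are described next. Gpr65, an acid-sensing receptor of leukocytes, had 35.4, 26.5, 26.3, 25.8, 41.9, 24.0 and 21.8 CPM in KO tumors 1 to 7, against 12.4, 21.6, 5.08, 12.6, 18.0, 11.2, 15.2 and 11.4 CPM in Control1 tumors 1 to 8. Its 2 highest KO tumors were again 1 and 5, and its lowest Control1 tumor was again number 3 (r = 0.97). Fcgr1, the high-affinity receptor for the Fc part of IgG, had 142, 119, 104, 110, 143, 87.8 and 114 CPM in KO tumors, against 66.8, 92.9, 37.7, 63.5, 90.2, 58.4, 76.0 and 72.2 CPM in Control1 tumors (r = 0.97). Only KO tumor 6 lay below any Control1 tumor for Fcgr1.

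Ctss, the lysosomal protease cathepsin S that trims the invariant chain of MHC class II, was the most abundant of the 15, at 391 to 891 CPM in KO tumors and 194 to 496 CPM in Control1 tumors (r = 0.95). Mpeg1, the pore-forming perforin-2 of macrophages, had 225 to 580 CPM in KO tumors and 138 to 362 CPM in Control1 tumors (r = 0.94). The chemokine Cxcl16 (r = 0.96), the interleukin-10 receptor chain Il10ra (0.95), the Fc receptor Fcgr4 (0.94) and Tnfrsf13b, the receptor TACI (0.95), were also highest in KO tumors 1 and 5 and lowest in Control1 tumor 3. Ms4a4c, Treml2, Eif4e3, Frmd4b, Arl6ip1 and the purine enzyme adenosine deaminase (Ada) were also among the 15, with r between 0.94 and 0.96. Ada was not particular to whole tumors, with a mean of 8.67 CPM in KO tumors and 6.18 CPM in Control1 tumors, against 6.09 CPM in purified KO and 3.10 CPM in purified Control1 cells. Mpeg1 was still at 44.6 CPM in purified KO and 14.1 CPM in purified Control1 cells. Members of families with similar copies, such as the Fc receptors and the Ms4a genes, may share reads. The sharing was not measured, so their separate levels may be less certain.

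Promoters of followers were set beside those of all genes for the letters that PU.1, a transcription factor of myeloid cells, is known to bind. RefSeq promoters (GRCm38.p6, 250 bases before to 50 after a gene's start, the first listed for each gene) were matched for 9693 measured genes and 203 followers. The core AGGAAGT, read on both strands, was in 23.2% of the followers' promoters and in 9.49% of all. Of the 32 promoters matched among genes with r of -0.6 or less in both genotypes, 6.25% held it. A core of interferon response elements, GAAA, any 2 bases and GAAA again, read on both strands and free to overlap the other, was in 8.87% of the followers' promoters and 3.32% of all, and in 9.38% of the 32. These are counts of letters, not of bound sites. Of Ptprc and the 15 genes of highest r, 11 had a promoter in the table and 6 of those held AGGAAGT. Ptprc and 2 of its closest followers are shown, each 5' to 3' on the gene's own strand, with AGGAAGT or its reverse complement ACTTCCT in capitals. They lie at chr1:138175256-138175555 (minus strand) for Ptprc, chr3:96293920-96294219 (minus strand) for Fcgr1 and chr3:95526536-95526835 (plus strand) for Ctss.
Ptprc: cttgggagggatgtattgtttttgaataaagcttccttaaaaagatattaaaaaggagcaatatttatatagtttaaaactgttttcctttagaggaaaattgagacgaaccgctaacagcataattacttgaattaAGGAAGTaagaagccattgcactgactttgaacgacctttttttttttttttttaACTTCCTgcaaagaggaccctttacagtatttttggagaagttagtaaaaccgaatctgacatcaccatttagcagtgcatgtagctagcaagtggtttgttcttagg
Fcgr1: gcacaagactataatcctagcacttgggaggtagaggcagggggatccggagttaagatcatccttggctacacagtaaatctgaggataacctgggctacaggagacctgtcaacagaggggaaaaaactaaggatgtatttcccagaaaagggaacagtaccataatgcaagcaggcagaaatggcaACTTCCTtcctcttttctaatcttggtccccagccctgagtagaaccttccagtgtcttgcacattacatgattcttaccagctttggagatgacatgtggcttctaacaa
Ctss: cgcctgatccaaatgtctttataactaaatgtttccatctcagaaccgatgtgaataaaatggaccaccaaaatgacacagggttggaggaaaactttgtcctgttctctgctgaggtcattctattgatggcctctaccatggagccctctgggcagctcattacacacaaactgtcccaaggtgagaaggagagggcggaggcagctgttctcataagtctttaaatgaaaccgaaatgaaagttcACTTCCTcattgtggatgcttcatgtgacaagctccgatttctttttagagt
Ptprc held the core on both strands, at 2 places, and Fcgr1 and Ctss at 1 place each. Gpr65 and Mpeg1, which followed Ptprc as closely, held neither it nor its reverse complement in this window.

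By the median r of its members the macrophage list was the highest of the 39 gene lists read, just above the pan-leukocyte list, which was the higher of the pair by the r of its mean residual (0.90 against 0.87). The rule used these values, so they are a description. Of its 22 members 21 had r above 0 and 12 reached 0.8, with a median r of 0.84 (0.87 within KO and 0.83 within Control1 tumors) and a median slope of 1.23. The F4/80 gene Adgre1 had 165, 113, 101, 97.6, 164, 51.5 and 114 CPM in KO tumors, against 79.8, 93.4, 34.1, 51.8, 131, 60.0, 88.3 and 55.6 CPM in Control1 tumors (r = 0.88, slope 1.64). Its range within each genotype was wider than that of Ptprc, with KO tumor 6 below 7 of the 8 Control1 tumors. The complement gene C1qa ranged from 248 to 618 CPM in KO tumors and from 113 to 410 CPM in Control1 tumors (r = 0.86). Cd14, the co-receptor for lipopolysaccharide, was the exception at r = -0.07. Among the 19 pan-leukocyte genes other than Ptprc the median r was 0.81, and 18 were at 0.5 or more. Cytip alone, an adaptor that lymphocytes use in adhesion, went the other way at -0.32, and it also had a level of 69.5 CPM in KO tumors, against 86.3 CPM in Control1 tumors.

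MHC class II genes had a lower median r of 0.72 but the steepest median slope of the immune lists, 1.43. H2-Ab1, a chain of the class II molecule, had 158, 105, 134, 122, 169, 56.1 and 59.1 CPM in KO tumors, against 45.2, 103, 26.5, 42.7, 46.8, 49.8, 49.0 and 67.4 CPM in Control1 tumors. KO tumors 6 and 7 and Control1 tumor 3 were low, and Control1 tumor 2 was far above the rest of its group. The cross-presenting dendritic cell receptor Xcr1 (r = 0.83, slope 2.33) and Clec9a (r = 0.76) moved with Ptprc as well. Both were low, each at 0.26 CPM in Control1 tumor 3. Without that tumor and KO tumor 5, r was 0.52 for Xcr1 and 0.49 for Clec9a. In the T cell list the median r was 0.61 with a slope of 0.72, and 20 of 21 members were above 0. Cd8a, the co-receptor of killer T cells, had 53.5, 46.5, 50.5, 29.4, 61.0, 43.5 and 37.7 CPM in KO tumors, against 21.5, 29.7, 11.9, 17.3, 26.7, 15.4, 21.3 and 12.6 CPM in Control1 tumors (r = 0.79), and only KO tumor 4 lay below the highest control. Of the T cell genes Tcf7, a transcription factor of memory-like cells, was the exception at -0.23.

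Transcripts of killer-cell granules split into genes of positive and genes of negative r. Nkg7 (r = 0.72) and Ctsw (r = 0.72), both of lymphocyte granules, were positive over all tumors. Within KO tumors r was only 0.34 for Nkg7 and 0.22 for Ctsw, against 0.88 and 0.87 within Control1 tumors. Without KO tumor 5 and Control1 tumor 3 it was 0.36 for Nkg7 and 0.39 for Ctsw. Granzymes Gzmc, Gzmd, Gzme and Gzmf and perforin (Prf1) had r of -0.57 to -0.61, and Gzmb had -0.44. Gzmf had 7.33, 258, 151, 405, 93.7, 358 and 292 CPM in KO tumors 1 to 7, against 74.5, 115, 174, 207, 6.55, 179, 13.7 and 146 CPM in Control1 tumors 1 to 8. It was near 0 in KO tumor 1 and in Control1 tumors 5 and 7, 3 tumors with Ptprc above the mean of their genotype, and the 2 genotypes overlapped. Its slope was -3.66 ± 1.43 (SE) log2 units per log2 unit of Ptprc, and its r was -0.78 without the 2 tumors farthest from the median of Ptprc. Prf1 had 27.4, 81.3, 60.9, 110, 55.5, 69.5 and 88.7 CPM in KO tumors, against 54.9, 56.4, 74.8, 84.6, 27.1, 66.4, 23.3 and 53.4 CPM in Control1 tumors, so the same 3 tumors were low. Cd8a was not low in those 3. Gzmc to Gzmf are near-identical neighbours on chromosome 14, so reads may be split among them.

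The 28 type I interferon-stimulated genes had a median r of -0.21 (-0.64 within KO and 0.099 within Control1 tumors). Mx2 was at -0.58 and Ifit1, which binds foreign RNA, at -0.51. Purified tumor cells expressed these 28 genes too, with a median log2 fold change, tumors over purified cells, of -0.12. By edgeR (adjusted p under 0.05) 6 were higher in tumors and 9 lower, beside 35.1% and 28.9% of all genes tested. Ifit1 was at 122 CPM in purified KO cells and 95.8 CPM in KO tumors. In Control1 it was at 34.6 CPM in purified cells and 66.3 CPM in tumors. The mean residual of the 28 genes tracked that of the cytotoxic list across the 15 tumors (r = 0.87, within KO 0.85 and within Control1 0.89). This is a description over libraries that share depth and scaling. The cytotoxic mean is not scaled by gene, so genes of wide spread weigh most in it. The residual SD was 1.92 for Gzme and 1.94 for Gzmf, against 0.36 for Nkg7 and 0.49 for Ctsw. The NK cell list lay on the positive side over all tumors, with a median r of 0.48, 8 of 9 members above 0 and the activating receptor Klrk1 at 0.88. Its mean residual had r 0.045 with Ptprc in KO tumors and 0.95 in Control1 tumors, and KO tumor 6, lowest in Ptprc, was highest in it. Ncr1, the NK receptor NKp46, was at 4.81, 7.13, 6.04, 11.1, 15.3, 19.1 and 7.30 CPM in KO tumors, against 6.86, 10.2, 5.34, 8.46, 9.07, 9.05, 9.22 and 7.54 CPM in Control1 tumors. Neutrophil genes had a median r of 0.023, and of the 2 at 0.5 or more 1 was Csf3r, the receptor for granulocyte colony-stimulating factor (r = 0.82). Of markers that define other leukocytes, Ly6g of neutrophils had 3 counts over all 15 tumors, and the eosinophil gene Epx was at 0.

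**Figure D2:**
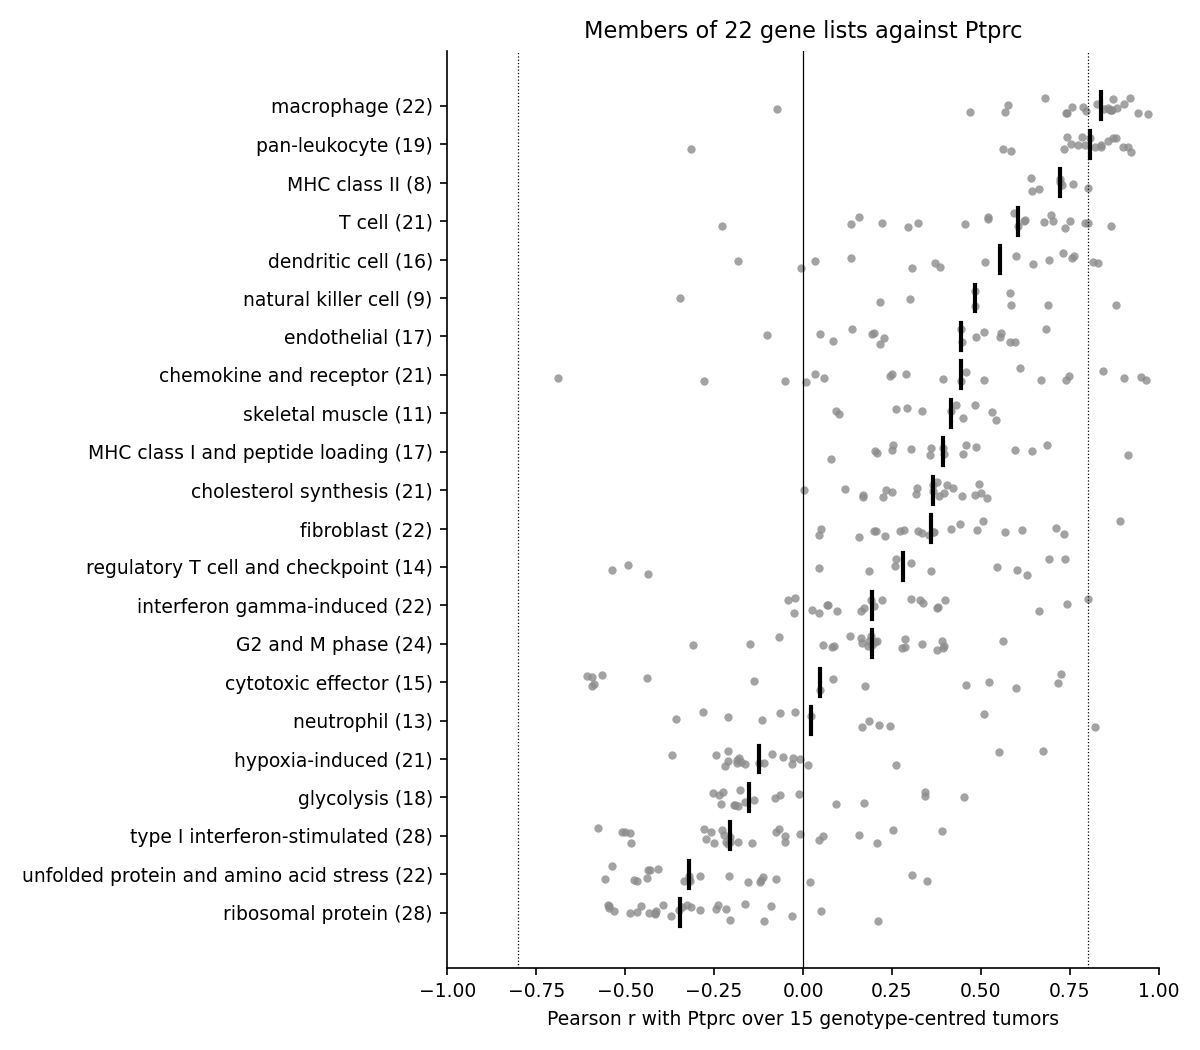
Pearson r with Ptprc over the 15 genotype-centred tumors (x axis) for each member (points) of 22 gene lists (rows, number measured in brackets), with the list median as a bar and dotted lines at 0.8 and -0.8. Macrophage and pan-leukocyte members lie near 0.8, cytotoxic members form separate positive and negative clusters, and ribosomal protein members lie mostly below 0.

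Checkpoint and chemokine genes held members of both signs. Pdcd1, the receptor PD-1, had 13 to 25.2 CPM in KO tumors and 6.15 to 12.6 CPM in Control1 tumors (r = 0.74), and Lag3 had an r of 0.69. Tnfrsf9, the costimulator 4-1BB, had an r of -0.54. It was also found in purified tumor cells, at 25.4 CPM in KO and 43.1 CPM in Control1. Its means in tumors were 101 CPM in KO and 146 CPM in Control1. Pdcd1 was at 0.11 CPM in purified KO and 0.18 CPM in purified Control1 cells. Besides Cxcl16, the monocyte receptor Ccr2 was at 0.90. Cxcl1, a chemokine that draws neutrophils, was at -0.69, with 2.62, 3.80, 3.59, 5.33, 2.09, 4.62 and 3.56 CPM in KO tumors, against 6.65, 4.79, 9.15, 5.54, 4.22, 5.88, 8.18 and 10.8 CPM in Control1 tumors. It was lowest in KO tumors 1 and 5, the 2 of highest Ptprc. Cxcl9, a chemokine induced by interferon gamma, had an r of 0.74, and the non-classical class I gene H2-T23 one of 0.91, while the median over the 17 class I genes was 0.39.

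Stromal genes lay mostly on the positive side as well. All 22 fibroblast genes had r above 0, with a median of 0.36 (0.77 within KO and 0.23 within Control1 tumors). Mfap5, a microfibril protein, had 19.6, 14.3, 12, 13.6, 19.2, 9.11 and 15 CPM in KO tumors, against 8.91, 9.15, 4.76, 7.84, 8.97, 7.55, 9.12 and 7.44 CPM in Control1 tumors (r = 0.89). KO tumors 1 and 5 were highest and Control1 tumor 3 lowest, as for Ptprc, and only KO tumor 6 overlapped with controls. Postn, which encodes periostin (r = 0.71), and Mmp2 (0.75) were positive but under the limit for followers, and the inhibitor Timp3 (0.81) reached it. Mmp2 and Timp3 belong to the list of matrix metalloproteinases and inhibitors, whose median r was only 0.044, with 7 of 12 members above 0. The endothelial median was 0.45 with 16 of 17 members above 0. All 11 measured skeletal muscle genes were above 0 too, at a median r of 0.42. Their mean residual was 2.52 log2 units up in KO tumor 1 and 2.17 down in KO tumor 6, but only 0.07 up in KO tumor 5, the highest in Ptprc. Adipocyte genes were highest in KO tumor 1 and lowest in KO tumor 6 as well. The part of adjacent tissue in the results for stroma was not tested.

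**Figure D3:**
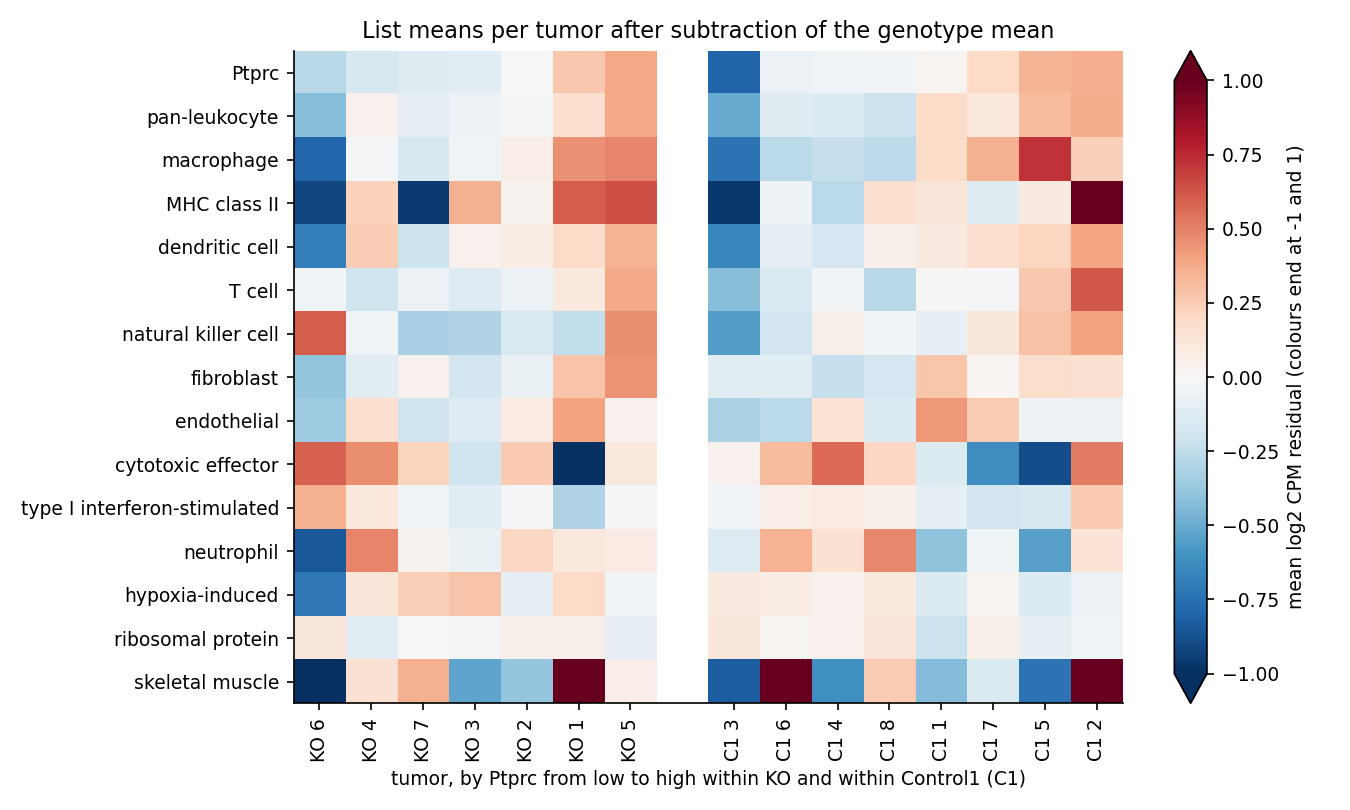
Mean log2 CPM residual (colour, from -1 to 1) of Ptprc and 14 gene lists (rows) in each tumor (columns, ordered by Ptprc from low to high within KO on the left and within Control1 on the right). The macrophage row follows the order of Ptprc closely, whereas the cytotoxic row is lowest in KO tumor 1 and Control1 tumors 5 and 7.

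Only Dusp1 and Speg opposed Ptprc at the limit chosen. Dusp1, a phosphatase that switches off MAP kinases, had 24.6, 27.0, 26.3, 31.2, 22.3, 27.6 and 31.0 CPM in KO tumors, against 29.6, 27.6, 40.1, 32.4, 22.8, 31.2, 31.8 and 30.3 CPM in Control1 tumors. It was highest in Control1 tumor 3, where Ptprc was lowest, and lowest in KO tumor 5 and Control1 tumor 5. Speg, a kinase best known from striated muscle, had 17, 18.5, 19.3, 21.4, 16.9, 20.8 and 19.9 CPM in KO tumors, against 12.4, 13.6, 16.8, 14.7, 12.6, 13.3, 12.3 and 15.4 CPM in Control1 tumors, without overlap. The immediate early genes Egr1 (r = -0.70) and Nr4a1 (-0.68) went the same way as Dusp1. Their list of 18 immediate early and heat shock genes did not as a whole, with a median r of -0.087 and 6 members above 0. Its median was 0.035 within KO and -0.42 within Control1 tumors. Foxf1 (-0.72), the Ras-related GTPase Mras (-0.78), the snoRNA host Snhg1 (-0.78) and the amino acid enzyme Bcat1 (-0.69) were among the 15 lowest. Purified tumor cells expressed these genes too, Dusp1 at 52.6 CPM in KO and 21.7 CPM in Control1, and their slopes were shallow, -0.55 for Dusp1 and -0.39 for Speg. Avil, which encodes the actin-binding protein advillin, was the exception at -2.18 ± 0.66 (SE), and like Gzmf it was lowest in KO tumors 1 and 5 and Control1 tumors 5 and 7. Without the 2 tumors farthest from the median of Ptprc, r was -0.69 for Dusp1, -0.68 for Speg and -0.25 for Foxf1.

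Of programmes expressed by the carcinoma cells too, 26 of 28 ribosomal protein genes had r below 0 (median -0.34) and 19 of 22 genes of the unfolded protein and amino acid stress list did (median -0.32), with Chac1 at -0.56 and Ddit3, the stress factor CHOP, at -0.54. All 21 cholesterol synthesis genes were above 0 (median 0.36). Pooled medians were -0.15 for glycolysis and -0.12 for hypoxia-induced genes, and these joined opposite signs, 0.09 in KO and -0.40 in Control1 tumors for glycolysis and 0.16 in KO and -0.45 in Control1 tumors for hypoxia. For S phase genes the pooled median was 0.15, with -0.30 in KO and 0.26 in Control1 tumors, and for G2 and M phase genes 0.19. No difference between the genotypes in these medians was tested. Lox, a collagen cross-linking enzyme within the hypoxia list, stood apart from it at 0.67. Genes were also divided into 5 groups of like size by the ratio of their level in tumors to that in culture. The group of highest ratio held 252 of the 277 followers and had a median r of 0.35, and the group of lowest ratio held 0 followers and had a median of -0.065.

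Correlations chosen in one genotype were then tested in tumors of the other, which the choice had not used. In the Control1 tumors alone 608 genes (4.72%) had r 0.8 or more and 50 (0.389%) had -0.8 or less. In the KO tumors alone the numbers were 504 (3.92%) and 379 (2.95%). The lists of positive genes shared 174 genes, 34.5% of the KO list and 28.6% of the Control1 list. Of 603 genes chosen in Control1 tumors and tested for a slope on Ptprc in the 7 KO tumors, 86 (14.3%) rose with it and 0 fell (edgeR quasi-likelihood test, Benjamini-Hochberg adjusted p under 0.05 over all genes), against 1.12% of all genes rising and 0.0157% falling. Of 484 genes chosen in KO tumors and tested in the 8 Control1 tumors, 118 (24.4%) rose and 0 fell, against backgrounds of 1.71% and 0.0159%. With DESeq2 the 2 counts of rising genes were 157 and 183. For the first set the median slope was 0.74 in KO tumors, and for the second 0.62 in Control1 tumors, while the medians over all genes were -0.017 and 0.0014.

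On the negative side few genes passed in either genotype, so a count of 0 says little. Of the genes at -0.8 or less in KO tumors 372 were tested in Control1 tumors and 0 passed in either direction, with a median r there of 0.10, beside 0.12 for all genes. Of those at -0.8 or less in Control1 tumors 47 were tested in KO tumors and 0 passed. Their median r there was -0.18, beside -0.027 for all genes, and 30% were above 0, beside 48.3% of all.

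**Figure D4:**
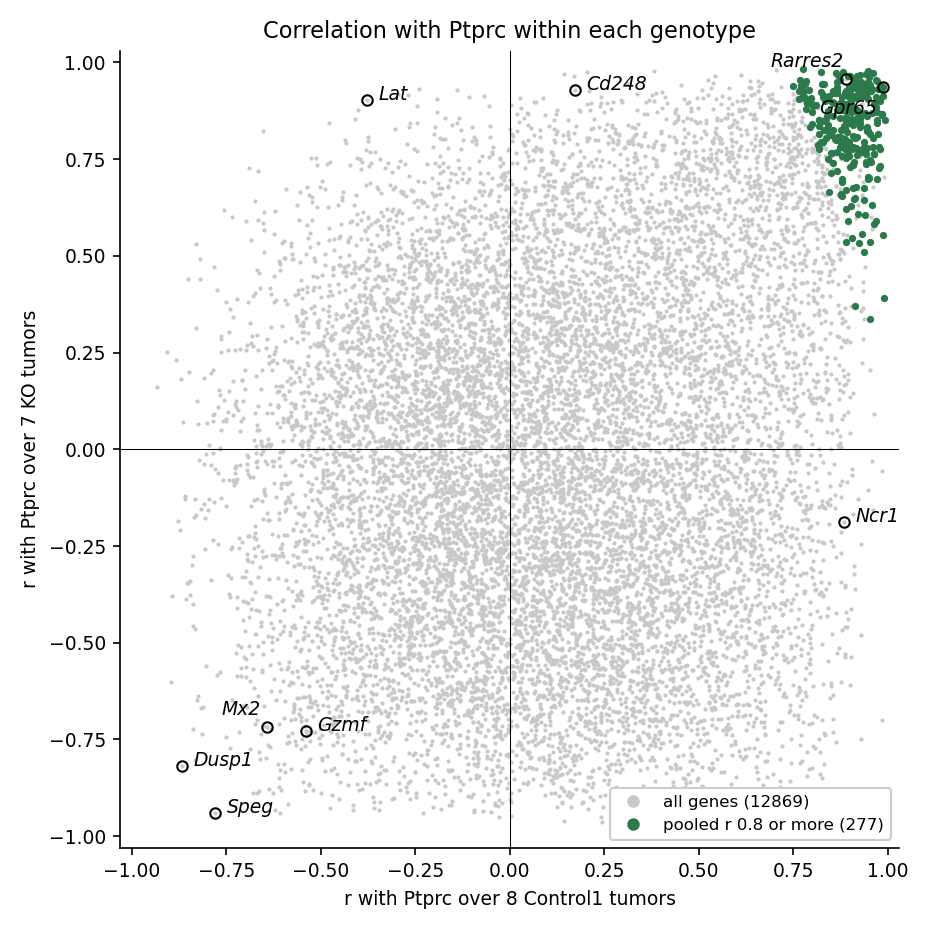
Pearson r with Ptprc of each of 12869 genes over the 7 KO tumors (y axis) and over the 8 Control1 tumors (x axis), with the 277 followers in green and 9 named genes circled. Followers fill the upper right corner, and Ncr1 and Lat lie where the 2 genotypes differ in sign.

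Slopes on Ptprc were compared directly between the genotypes. Of 13752 genes tested, 1 (0.00727%) differed, and 709 had an unadjusted p under 0.05. The gene that passed was Rarres2, which encodes chemerin, an attractant of macrophages, dendritic cells and NK cells. It had 127, 52.4, 53.5, 53.1, 143, 34.1 and 62.8 CPM in KO tumors 1 to 7, against 39.0, 47.8, 27.8, 39.6, 41.7, 40.5, 40.8 and 45.5 CPM in Control1 tumors. KO tumors 1 and 5 stood far above all others, and the Control1 tumors were within a narrow range. In edgeR fits to each genotype alone the slope was 2.98 in KO tumors and 0.52 in Control1 tumors. The difference fitted to the counts in edgeR was 2.47 ± 0.31 (SE; adjusted p = 0.00179), and within each genotype Rarres2 was positively correlated with Ptprc (r = 0.96 in KO and 0.89 in Control1 tumors). DESeq2 gave 6 such genes, adding Adamts2, Lbp, Pcsk5, Serpina3n and Tgfbr1, for which the edgeR adjusted p was 0.351 to 0.396. The next smallest p-values in edgeR at 5 CPM or more were those of the procollagen protease Adamts2, the TGF-beta receptor Tgfbr1, the collagen-associated Aebp1 and Cd248, a marker of pericytes and fibroblasts. All 4 were steeper in KO tumors and did not pass.

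Followers were also read in the comparison of the genotypes, whose means the correlations do not contain. Of the 277 followers 184 (66.4%) were higher in KO tumors and 2 lower, beside 18.1% of all 13752 genes tested that were higher and 19% that were lower (edgeR quasi-likelihood test, adjusted p under 0.05). Among genes of a mean of 1 CPM or more in tumors, from which followers were chosen, the shares were 18.5% and 20.1%. Their median log2 fold change, KO over Control1, was 0.58, and that of all genes 0.0092. Ptprc itself rose by 0.62 ± 0.14 (SE) on the log2 scale (edgeR adjusted p = 0.0030). The 2 lower followers were Rp2, at 30.2 CPM in KO and 35.3 CPM in Control1 tumors, and the septin gene Sept6, at 20.5 CPM in KO and 24.1 CPM in Control1 tumors. Leaving out 1 tumor at a time gave 153 to 213 higher followers.

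Macrophage and T cell genes differed in how they read between and within genotypes. In the macrophage list, with the steeper slope within genotypes, 4 of 22 genes were higher in KO tumors (C1qa, C1qc, Fcgr1 and Aif1) and 1 was lower (Cd14), at a median log2 fold change of 0.30. That share, 18.2%, is near the 18.1% of all genes. In the T cell list 17 of 21 (81.0%) were higher and 0 lower, at a median of 0.71. Cd3g, a chain of the T cell receptor complex, rose by 1.45 ± 0.14 (SE) on the log2 scale, with a mean of 30.8 CPM in KO tumors and 11.3 CPM in Control1 tumors. Mrc1, the mannose receptor CD206 of macrophages, had 73.3 ± 19.4 CPM in KO tumors and 98.2 ± 51.1 CPM in Control1 tumors (SD, n = 7 and 8), a log2 fold change of -0.41 that did not pass the test. Adgre1 did not pass either (0.64 ± 0.28, edgeR adjusted p = 0.085). Gzmd, Gzme, Gzmf and Prf1 had log2 fold changes of 0.35 to 0.95 with standard errors of 0.31 to 0.77 and did not pass. Of the 28 interferon-stimulated genes 24 (85.7%) were higher in KO tumors, and their median r with Ptprc was -0.64 within KO tumors but 0.099 within Control1 tumors. The 21 cholesterol synthesis genes, all of positive pooled r, included 14 (66.7%) lower and 0 higher in KO tumors. Skeletal muscle genes moved with the genotype too, 9 of 11 (81.8%) being higher and 0 lower in KO tumors at a median log2 fold change of 2.14, and their part in these results was not tested. These contrasts between lists are counts, and no difference between lists was tested.

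**Figure D5:**
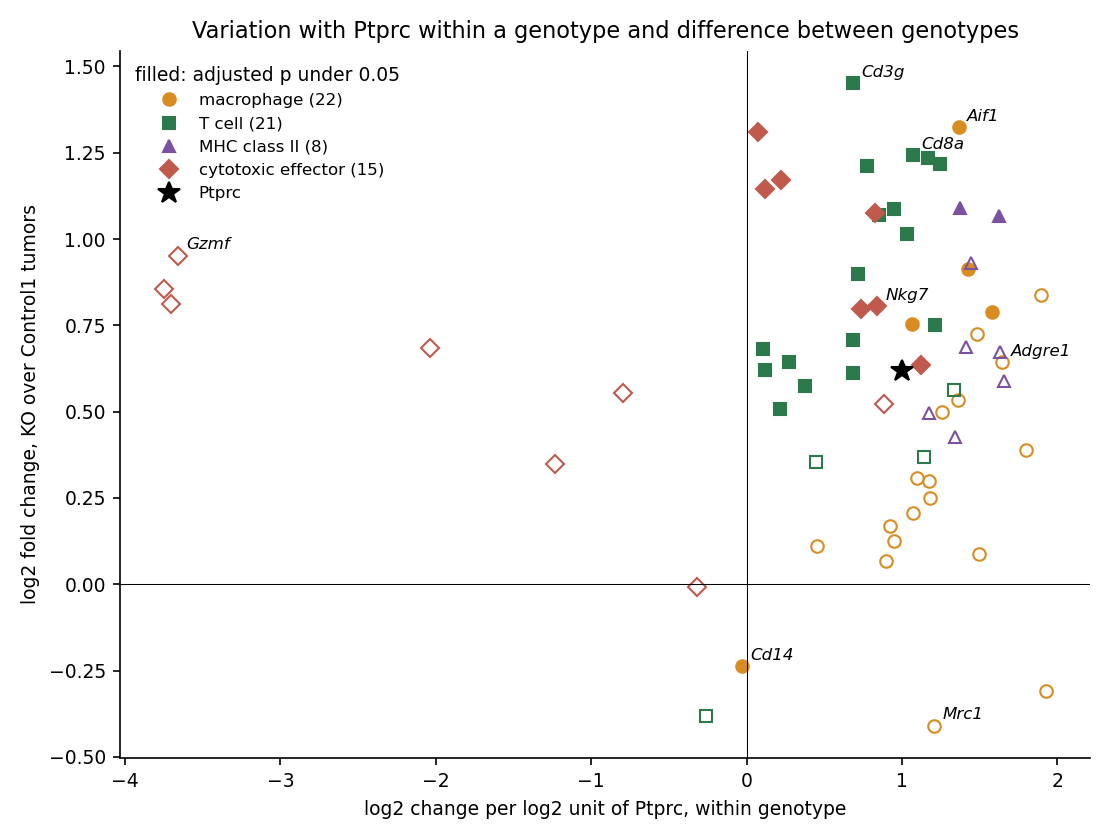
Log2 fold change, KO over Control1 tumors (y axis), against the slope on Ptprc within genotypes (x axis, log2 per log2 unit) for members of 4 lists, filled where the edgeR adjusted p was under 0.05, with Ptprc as a star. T cell genes lie high with shallow slopes, most macrophage genes lie lower with steeper slopes, and Gzmd, Gzme and Gzmf lie far left near -3.7.

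Whole tumors were last set against purified tumor cells, a readout outside the residuals. The isolation kit is meant to deplete host cells, leukocytes among them. A higher level of leukocyte genes in whole tumors was thus built into the comparison. The counts are a description and no support for the choice of followers. Of the 277 followers 263 (94.9%) were higher in tumors and 3 lower, beside 35.1% and 28.9% of all 15033 genes tested. Followers had first to reach 1 CPM in whole tumors. Of all 12869 genes held to that minimum, followers included, 32.9% were higher and 33.3% lower. The followers' median log2 fold change, tumors over purified cells, was 5.98. Ptprc rose by 7.10 ± 0.37 (SE) on the log2 scale (edgeR adjusted p = 1.54e-11). The 3 lower ones were Mfap4, Myl12b and Sept6. The 11 followers that did not pass included C4b, at 139 CPM in KO tumors and 119 CPM in Control1 tumors but 186 CPM in purified KO and 44.8 CPM in purified Control1 cells, and the GTPase Cdc42, at 509 CPM in KO tumors and 446 CPM in Control1 tumors but 422 CPM in purified KO and 598 CPM in purified Control1 cells. The macrophage list was higher in tumors for 22 of 22 genes and the fibroblast list for 10 with 9 lower. Lum, a proteoglycan gene, was at 1.89 CPM in purified KO and 48.2 CPM in purified Control1 cells and at 0.048 CPM in cultured KO and 0.21 CPM in cultured Control1 cells. The collagen gene Col1a2, named after its values were seen, was at 2326 CPM in purified KO and 2934 CPM in purified Control1 cells and at 969.6 CPM in cultured KO and 1229.8 CPM in cultured Control1 cells.

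Technical measures of the libraries were compared with Ptprc after the genotype means were subtracted. Pearson r (n = 15) was 0.18 for total counts (permutation p = 0.57), 0.34 for genes detected (p = 0.19), -0.065 for the share of the 20 most abundant genes (p = 0.84) and 0.28 for the mitochondrial share (p = 0.35), two-sided with 100000 permutations within genotype. Adjusted over the 4 measures the p-values were 0.71 to 0.84. Spearman rho was 0.33, 0.20, 0.032 and 0.38, in the same order, with permutation p of 0.23, 0.50, 0.91 and 0.17 (adjusted 0.46 to 0.91). Without the 2 tumors farthest from the median of Ptprc, r was 0.35, 0.40, -0.0058 and 0.18. The largest principal component of the residuals held 22.8% of their variance and had an r of 0.74 with Ptprc, and the next held 14.2% with an r of 0.55. KO tumor 6 lay at the far end of the first, and without it 318 genes followed Ptprc.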

How the data were processed

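Poly(A)-enriched RNA was sequenced on an Illumina instrument, per the labels' protocols. The submitters' processing notes name FastQC, STAR, RSEM and DESeq2 on mm10, whose versions the sources at hand do not state. The authors deposited RSEM tables, whose expected counts (estimated counts per gene, not scaled between libraries, per the file headers) were used; the TPM, FPKM and comparison tables were not used. Expected counts were scaled to CPM of the library total, logged with a prior count of 2 and centred on the genotype mean. Fits used counts rounded to whole numbers, edgeR 4.0.16 in R 4.3.3 with TMM, filterByExpr (minimum count 10, total 15), robust quasi-likelihood F tests and Benjamini-Hochberg adjustment at 0.05, and were checked on simulated data. All tests are two-sided. Slopes of the correlations are least squares over residuals. Correlations, permutations and figures used Python 3.11.15 with numpy 2.4.6, scipy 1.17.1 and matplotlib 3.10.9.

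All 15 tumors were grouped by their labels. The limits of r, the gene lists and the rule for named genes were chosen with earlier results of these data known. Genes named are Ptprc, the 15 highest and 15 lowest r at a mean of 5 CPM or more and r of at least 0.6 in size within both genotypes, 3 members of each list with the largest r in size and up to 2 of opposite sign, and the 5 smallest p of the slope difference; the text gives part of them. Other members of lists were named after their values were seen (Adgre1, C1qa, C1qc, Cd14, Cytip, H2-Ab1, Tcf7, Mrc1, Cd3g, Ncr1, Lat, Gzmb, Gzmc, Gzmd, Prf1), and so were Sun1, the followers that went against the others and the genes DESeq2 added. No 2 libraries of a group differed by counting noise alone, as 1 library sequenced again would (chi-square per gene at least 7.38, where about 1 would be counting noise). This cannot tell whether 2 libraries came from 1 tumor or 1 mouse. Alternatives were other scalings, prior counts, filters, Spearman's rho, another leukocyte index, centring by runs of file numbers, a replicate block, DESeq2 and leaving out each library. Total expected counts limit precision by counting error little at most levels named. They limit it more for genes near or under 1 CPM in a tumor, such as Xcr1 and Clec9a. A few genes that these rules name are not reported here.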

Additional observations from a re-analysis of the deposited data

Results flagged for a closer look

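Each set of values was examined within the 7 KO and within the 8 Control1 tumors for a highest or lowest tumor far from its neighbour, measured as the gap to the nearest tumor over the whole range. Of 88 sets 11 passed Dixon's 95% critical value for their number of tumors, and chance alone gives about 4.4.

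Ptprc was low in Control1 tumor 3, at 6.14 log2 CPM with the next tumor at 6.88 (ratio 0.640). The mean residual of the few B and plasma cell genes was low there too, -0.60 log2 units with the next at -0.13 (ratio 0.563), as was that of matrix metalloproteinases and their inhibitors, -0.18 with the next at -0.04 (ratio 0.546).

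The cytotoxic list was low in KO tumor 1, at -1.45 log2 units with the next at -0.20 (ratio 0.614). KO tumor 6 was low in 4 lists, neutrophil genes at -0.85 with the next at -0.07 (ratio 0.587), glycolysis at -0.40 with the next at -0.04 (ratio 0.668), hypoxia-induced genes at -0.72 with the next at -0.10 (ratio 0.617) and nuclear envelope genes at -0.16 with the next at -0.01 (ratio 0.703).

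In Control1 tumor 5, G2 and M phase genes were high at 0.17 log2 units with the next at 0.04 (ratio 0.529), and immediate early and heat shock genes low at -0.28 with the next at -0.05 (ratio 0.564). The mitochondrial share of counts was low in Control1 tumor 1, and its log2 value was 1.36 with the next at 1.71 (ratio 0.527).

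The slope of Rarres2 on Ptprc differed between the genotypes by 2.47 in edgeR (adjusted p = 0.00179). In edgeR fits to each genotype alone it was 2.98 in KO tumors and 0.52 in Control1 tumors.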

How the results depend on the processing

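The main counts are 277 followers and 2 opposers. Followers numbered 433 with centring by genotype and run of file numbers and 145 without the 2 tumors farthest from the median of Ptprc, a setting chosen after seeing the data; over the other settings they were 203 (Spearman's rho) to 405 (index of the other 19 pan-leukocyte genes), and leaving out 1 tumor gave 207 to 328. Opposers numbered 5 with TMM, 7 with Spearman's rho, 5 with the index, 8 with centring by runs and 12 without the 2 farthest tumors, and 2 to 14 leaving out 1 tumor. With DESeq2 the genes chosen in Control1 and rising in KO tumors were 157 in place of 86, those chosen in KO and rising in Control1 tumors 183 in place of 118, and the slope difference called 6 genes in place of 1 (2 with no filter on low counts). Followers lower in KO tumors numbered 1 with no filter, 0 with total count scaling and 0 to 4 leaving out 1 tumor, in place of 2. Of 752 values for named genes and list medians 707 stayed within the spread and 45 moved. No test was attached to these, and 23 values over 5 list medians had the opposite sign, those of the cytotoxic (0.049, down to -0.37), neutrophil (0.023, down to -0.18), glycolysis (-0.15, up to 0.15), S phase (0.15, down to -0.10) and unfolded protein (-0.32, up to 0.065) lists. The cause of these changes was not tested.

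Tumors of the 2 genotypes share numbers, but the deviations of same-numbered tumors correlated at only -0.13 to 0.25 over 7 numbers, so the numbers were not taken as pairs. With a replicate block 327 genes followed Ptprc, 166 of them among the 277, 47 opposed it, and of the followers 205 were higher and 1 lower in KO tumors.

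Depth limits the genes near 1 CPM most, and genes under a mean of 1 CPM, Foxp3 among them, were not read. With 7 and 8 tumors a within-genotype r of 0.8 is imprecise. Purified cells had 2 libraries a genotype.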
